A study of Homo sapiens with 3 samples.

Results

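The miRNAs described here are miR-223, a miRNA of myeloid cells, and miR-142, a miRNA found across blood cells, as they were measured in MV4-11 cells. They were taken by name from the deposited tables, which gave 4 mature strands of the 783 listed mature miRNAs, miR-223-5p, miR-223-3p, miR-142-5p and miR-142-3p. The 2 hairpins they are cut from, hsa-mir-223 and hsa-mir-142, were taken from the 661 listed hairpins. MV4-11 is a cell line from an acute myeloid leukemia with a FLT3 internal tandem duplication (FLT3-ITD) and the MLL-AF4 fusion, and the labels call its genotype WT. All libraries came from cells infected with an empty-vector (EV) lentiviral CRISPR-Cas9 construct and grown for 2 weeks. Small RNA was sequenced in 3 replicate libraries, which form 1 group. No other cell type or treatment was measured, so the comparisons are between strands and between replicates. The labels do not say whether the replicates came from separate cultures or infections, so p-values rest only on spread between these libraries, which may be technical.

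A miRNA hairpin is cut into a duplex of 2 strands, the 5p arm and the 3p arm, and one of them is usually kept in an Argonaute protein while the other is degraded. The kept strand finds its mRNA targets mainly through its seed, bases 2 to 8 from its 5′ end. miR-223 is known as a regulator of granulocytes and monocytes, driven by myeloid transcription factors such as PU.1 and C/EBP proteins. miR-142 is transcribed throughout the blood lineages and nearly nowhere else, both of its strands are known to be functional, and its gene is recurrently mutated in acute myeloid leukemia.

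The 4 mature strands are shown because their ends and seeds are what the strands are compared on below. Sequences are those of RefSeq (GRCh38.p14), all 4 strands had an entry, and capitals mark the seed.
miR-223-5p: cGUGUAUUugacaagcugaguu
miR-223-3p: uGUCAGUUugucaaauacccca
miR-142-5p: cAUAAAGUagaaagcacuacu
miR-142-3p: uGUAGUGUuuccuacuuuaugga
The 4 seeds all differ. Among 2370 human mature sequences in the RefSeq table, only miR-5590-3p shared a seed with any of them, that of miR-142-5p, and it had no row in the mature table. Both 5p strands begin with C and end with U, and both 3p strands begin with U and end with A. The 3p strands share their first 3 bases and have the same base at 8 of 22 positions in all. The 5p strands share only the first base at their start but have the same base at 9 of 21 positions. Both miR-223 strands hold 9 G or C bases, which is 40.9% of each, against 33.3% of miR-142-5p and 34.8% of miR-142-3p.

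The hairpins are shown to place the strands, which are in capitals.
hsa-mir-223: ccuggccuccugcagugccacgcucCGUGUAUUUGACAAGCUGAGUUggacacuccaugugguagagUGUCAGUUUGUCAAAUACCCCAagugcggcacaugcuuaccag
hsa-mir-142: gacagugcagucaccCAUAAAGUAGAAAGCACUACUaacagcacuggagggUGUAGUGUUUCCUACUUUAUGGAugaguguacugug
In GRCh38.p14 the MIR223 hairpin spans chrX:66018870-66018979 (plus strand), and its strands are parted by 20 bases. The whole hairpin is in an exon of a non-coding gene on the same strand, AL034397.3 in GENCODE, where RefSeq places MIR223HG. The MIR142 hairpin spans chr17:58331232-58331318 (minus strand), with 15 bases between its strands. It is likewise in an exon of a non-coding gene of its own strand, AC004687.1 in GENCODE, where RefSeq places MIR142HG, and TSPOAP1-AS1 crosses the locus on the opposite strand. The deposited tables carry no coordinates. Each of the 4 mature strands had a single row, so no reads had to be divided between copies.

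All 4 strands were abundant, and miR-142-3p was the highest of them. Levels are given as deposited in FPKM, which are counts divided by the length of the strand and the total of the library. Replicate 1 stood apart from the other libraries across the table, with TMM scaling factors of 0.766, 1.09 and 1.19 in replicates 1, 2 and 3. The main values are given without it as well. miR-142-3p had 209151 FPKM in replicate 1, 676033 in replicate 2 and 701152 in replicate 3, and its mean of 528779 ± 277090 FPKM (SD, n = 3) ranked 19 of 783. miR-142-5p had 156760, 337557 and 336668 FPKM, a mean of 276995 ± 104128 (SD, n = 3) and rank 33. Replicates 2 and 3 were alike for both strands of miR-142, and replicate 1 was lower.

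miR-223-3p had 91627, 279634 and 321370 FPKM in replicates 1, 2 and 3, with a mean of 230877 ± 122386 (SD, n = 3) and rank 37. miR-223-5p had 96079, 109490 and 124667 FPKM, with a mean of 110079 ± 14304 (SD, n = 3) and rank 49. Its 3 libraries lay close together, while those of miR-223-3p fell into a low replicate 1 and a high pair. Without replicate 1 the means were 688592 FPKM for miR-142-3p, 337113 for miR-142-5p, 300502 for miR-223-3p and 117079 for miR-223-5p.

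**Figure D1:**
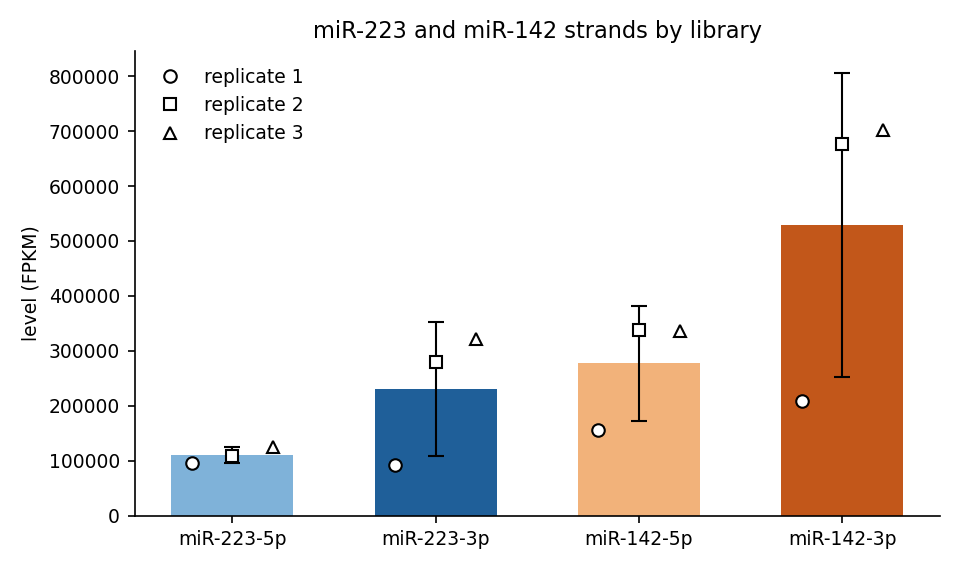
Level of each strand in FPKM (y axis) for miR-223-5p, miR-223-3p, miR-142-5p and miR-142-3p, as the mean of 3 libraries (bars) with the SD (error bars) and each library (symbols). Replicate 1 is the lowest symbol of every strand, only slightly so for miR-223-5p (96079 against 109490 and 124667 FPKM).

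Depth was ample for these strands. Replicates 1, 2 and 3 held 12694823, 10991953 and 11682129 counts of mature miRNAs. Counts of miR-223-5p were 25619, 25279 and 30591, those of miR-223-3p were 24432, 64562 and 78858, those of miR-142-5p were 39809, 74224 and 78678, and those of miR-142-3p were 58425, 163515 and 180242. As a share of mature counts, miR-142-3p took 0.460%, 1.49% and 1.54% of the 3 libraries, with Wilson 95% bounds of 0.457% and 0.464%, 1.48% and 1.49%, and 1.54% and 1.55%. miR-223-3p took 0.192%, 0.587% and 0.675%, bounded by 0.190% and 0.195%, 0.583% and 0.592%, and 0.670% and 0.680%. These intervals cover counting error only, and the libraries differed by far more than that.

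Neighbours in the order of levels were compared within libraries as log2 ratios of FPKM. miR-142-3p exceeded miR-142-5p in 3 of 3 libraries, by 0.83 ± 0.36 (SD), and miR-142-5p exceeded miR-223-3p in 3 of 3 libraries, by 0.37 ± 0.36. Both had an exact two-sided sign-flip p of 0.25 (n = 3), the smallest that 3 libraries can give. The second of these differences was no larger than about its own SD. It was 0.27 in replicate 2 and 0.067 in replicate 3, and miR-223-3p had the higher count in replicate 3. miR-223-3p exceeded miR-223-5p by 0.88 ± 0.82 (SD), in 2 of 3 libraries (exact sign-flip p = 0.5, n = 3). Without replicate 1 the difference between the strands of miR-223 was 1.36, that between miR-142-5p and miR-223-3p was 0.17, and that between the strands of miR-142 was 1.03. Outside these loci, the next above miR-142-3p was let-7a-5p at 544905 ± 91012 FPKM, and the next below was miR-423-3p at 447614 ± 38302 (SD, n = 3). Next above and below miR-223-3p were miR-181a-5p at 234247 ± 33301 and miR-1307-3p at 214397 ± 12451. None of these neighbours was farther from the strand beside it than the larger SD of the pair.

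At the hairpins, the level of hsa-mir-142 was 90110, 250910 and 257178 FPKM in replicates 1, 2 and 3, a mean of 199399 ± 94700 (SD, n = 3) and rank 15 of 661. The level of hsa-mir-223 was 36118, 74848 and 85759 FPKM, a mean of 65575 ± 26087 (SD, n = 3) and rank 34. hsa-mir-142 was the higher in 3 of 3 libraries, by 2.49-fold, 3.35-fold and 3.00-fold, or 1.55 ± 0.22 on the log2 scale (SD, exact sign-flip p = 0.25, n = 3). FPKM of hairpins are divided by hairpin length, 110 bases for hsa-mir-223 and 87 for hsa-mir-142, which raises this ratio above that of the counts. In counts of the hairpin rows the mean difference was 1.21 on the log2 scale. Without replicate 1 the means were 254044 FPKM for hsa-mir-142 and 80303 for hsa-mir-223. In counts of both strands together, miR-142 exceeded miR-223 by 1.96-fold, 2.65-fold and 2.37-fold. The ratio between the loci varied less between libraries than the level of either.

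Under 0.5% of the counts of either hairpin fell outside its strands in every library. For hsa-mir-223, 46, 101 and 86 counts of the hairpin row were in neither strand, which was 0.0918%, 0.112% and 0.0785% of it. For hsa-mir-142 there were 379, 150 and 247 such counts. That was 0.384%, 0.0631% and 0.0953% of the row, with Wilson 95% bounds of 0.348% and 0.425%, 0.0537% and 0.0740%, and 0.0841% and 0.108%. Replicate 1 of hsa-mir-142 stood above the other libraries, and without it the mean fell from 0.181% to 0.0792%. The median over 92 hairpins with at least 1000 counts in every library and single rows for both strands was 0.0557%. Counts outside the strands were taken as the hairpin row less its strand rows, not seen as reads. Among the 92 this difference was negative for hsa-mir-132, at a mean of -0.411%, so values this small are uncertain beyond counting error.

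Reads of both strands were plentiful for miR-223 and for miR-142, and 3p was the higher strand except in replicate 1 of miR-223. The 5p strand made up 51.2%, 28.1% and 28.0% of miR-223 reads in replicates 1, 2 and 3, with Wilson 95% bounds of 50.7% and 51.6%, 27.8% and 28.4%, and 27.7% and 28.2%. The ratio of 5p to 3p counts was 1.05, 0.392 and 0.388. Replicate 1 thus had the strands level, with 5p just ahead, and replicates 2 and 3 had 3p ahead by 2.55-fold and 2.58-fold. For miR-142 the 5p strand made up 40.5%, 31.2% and 30.4%, bounded by 40.2% and 40.8%, 31.0% and 31.4%, and 30.2% and 30.6%. The ratio of 5p to 3p counts was 0.681, 0.454 and 0.437.

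**Figure D2:**
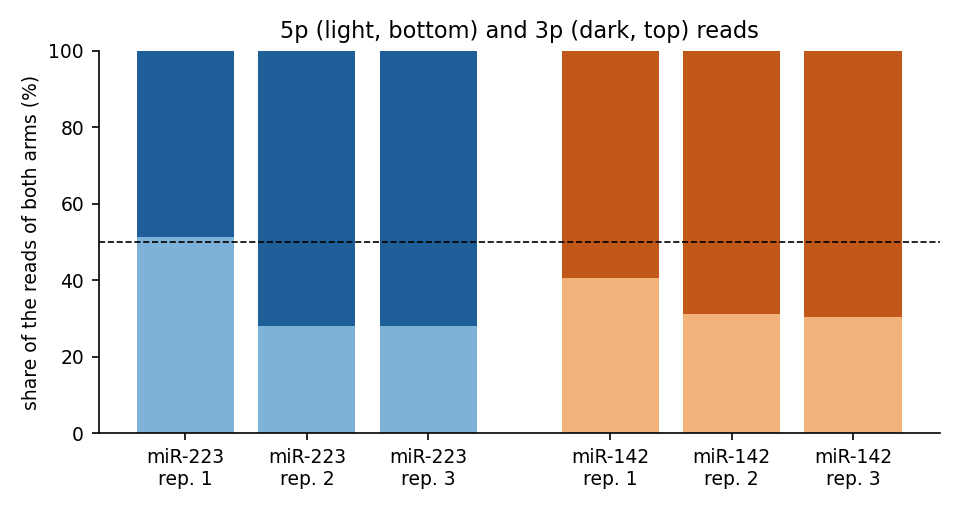
Share of 5p reads (light, bottom) and 3p reads (dark, top) in the reads of both strands (y axis, %), for each replicate of miR-223 and miR-142, with a dashed line at 50%. Only replicate 1 of miR-223 reaches the line, at 51.2% of 5p reads, and replicate 1 of miR-142 at 40.5% is above its replicates 2 and 3 at 31.2% and 30.4%.

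Strand preference was tested on counts with edgeR's quasi-likelihood test across the 195 hairpins with both strands above 0 counts in every library, with the library as a block. The p-value of a hairpin draws on the spread of all 195, not on its own alone. A preference was called at an adjusted p under 0.05 and an absolute log2 ratio of at least 1. Of the 195, 160 were called, which is 82.1%, with 79 toward 5p (40.5%) and 81 toward 3p (41.5%). The adjusted p alone was passed by 84.1%. Neither miR-223 nor miR-142 was called. The log2 ratio of 5p to 3p was -0.89 for miR-223 (edgeR adjusted p = 0.0545), with an SD between libraries of 0.82, and 3p was the higher strand in 2 of 3 libraries. For miR-142 it was -0.96 (edgeR adjusted p = 0.00653), with an SD of 0.36 and 3p the higher in 3 of 3, so it passed the p-value and missed the size. The adjusted p of miR-142 was above 0.05 without replicate 2 (edgeR, 0.0971) and without replicate 3 (0.0744). Their absolute ratios ranked 27 and 28 of 195 from the smallest, and the median over the 195 was 3.17. Without replicate 1 both were called toward 3p, at -1.36 for miR-223 and -1.17 for miR-142. In that setting 169 of 196 hairpins were called, 84 of them toward 3p, so a call was the usual outcome. That fit had only 2 libraries and drew on the spread of the other hairpins. Without the library as a replicate block, miR-223 was called at -1.07 (edgeR adjusted p = 0.0485) and miR-142 was not, at -1.07 (adjusted p = 0.0630).

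**Figure D3:**
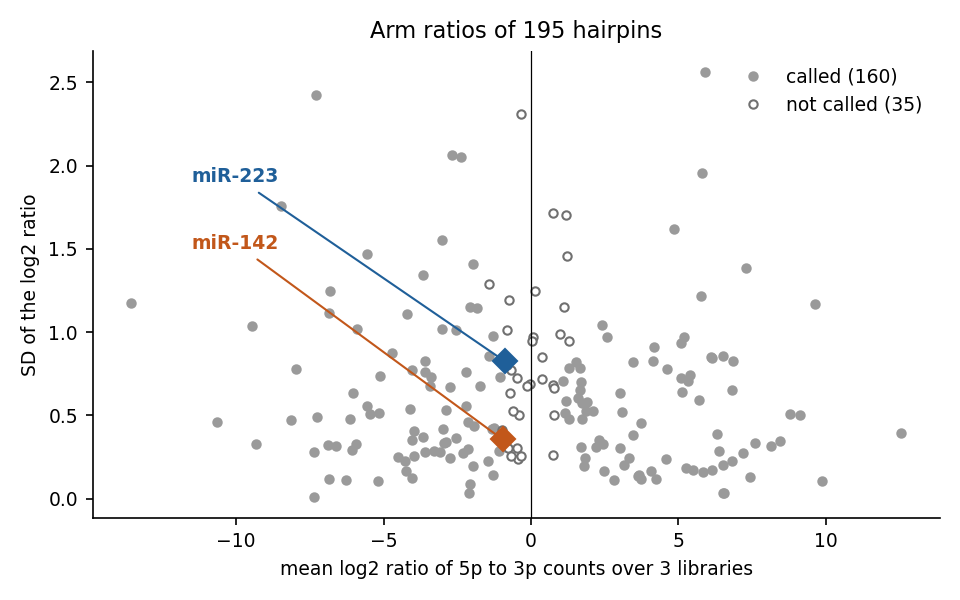
Mean log2 ratio of 5p to 3p counts over 3 libraries (x axis) against its SD (y axis) for 195 hairpins, with filled points for the 160 called by edgeR and open points for the others. miR-223 and miR-142 (diamonds) lie at -0.88 and -0.96, near the centre, where most hairpins that were not called lie.

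The lesser strand of both hairpins was well covered. Taking for each hairpin the lowest count of either strand in any library, miR-142 with 39809 ranked 1 and miR-223 with 24432 ranked 2 of the 195. Of 10 tested hairpins of other miRNAs listed for blood cells, 6 were called toward 5p, 2 toward 3p and 2 were not called, against 82.1% called over all. miR-155, an activation-induced miRNA of white cells, had a log2 ratio of 9.59 (edgeR adjusted p = 4.86e-05), and miR-146b, a regulator of inflammatory signaling, had 6.31 (adjusted p = 1.05e-05). miR-126, a miRNA of blood stem cells and endothelium, had -4.04 (adjusted p = 3.84e-05). Those not called were miR-424, linked to monocyte differentiation, at -0.78 (adjusted p = 0.141) and miR-144, of red cells, at -0.46 (adjusted p = 0.237).

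Replicate 1 differed from replicates 2 and 3 at 3 of the 4 strands. In CPM, counts scaled to the same total in each library, miR-223-3p was higher by 1.61 in replicate 2 and by 1.81 in replicate 3 on the log2 scale, and miR-142-3p by 1.69 and 1.75. miR-142-5p was higher by 1.11 and 1.10, and miR-223-5p by 0.19 and 0.38. Between replicates 2 and 3 none of the 4 moved by more than 0.20, that of miR-223-3p. Among the 163 mature miRNAs with at least 1000 counts in every library, the median of the mean shift of replicates 2 and 3 from replicate 1 was 0.43. miR-21-5p, the highest miRNA of the table, moved the other way, by -0.73. Relative to the median, a value that does not depend on how libraries are scaled, the shift was 1.28 for miR-223-3p, 1.29 for miR-142-3p, 0.68 for miR-142-5p and -0.14 for miR-223-5p.

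With 1 library on one side these shifts have no test. The shift of miR-142-3p ranked 13 and that of miR-223-3p ranked 15 of the 163 from the largest, with miR-142-5p at 36 and miR-223-5p at 97. A shift above 1 was seen for 44 of the 163, miR-223-3p, miR-142-3p and miR-142-5p among them. Under the 3 other scalings tried it was seen for 19, 20 and 26 of them, and miR-142-5p, at 0.53, 0.59 and 0.79, was no longer above 1. The direction of miR-223-5p was reversed with all 3, to between -0.30 and -0.032. The coefficient of variation of FPKM was 53.0% for miR-223-3p, 52.4% for miR-142-3p, 37.6% for miR-142-5p and 13.0% for miR-223-5p, and the median of the 163 was 29.1%. With TMM factors it was 38.5%, 38.7%, 20.3% and 12.3% in the same order against a median of 22.3%, so that of miR-142-5p moved from above the median to below it. Without replicate 1 it was 9.82%, 2.58%, 0.186% and 9.17%.

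**Figure D4:**
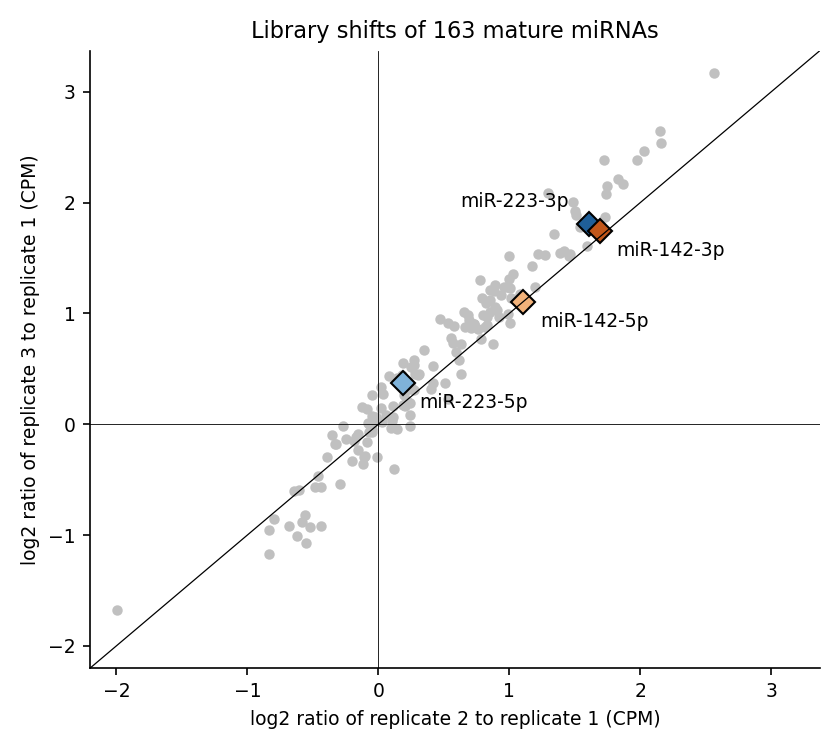
Log2 ratio of CPM of replicate 2 (x axis) and replicate 3 (y axis) to replicate 1 for 163 mature miRNAs (points), with the 4 strands as diamonds and a line of equal ratios. miR-223-3p and miR-142-3p lie together at 1.61 and 1.69 on the x axis, miR-142-5p at 1.11 and miR-223-5p at 0.19.

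Over the libraries, the 3p strands of the 2 loci were nearer to each other than to the 5p strand of their own hairpin. Likeness was measured over the 3 libraries as the Euclidean distance between log2 CPM, each centred on its own mean, among the 163. The distance between miR-223-3p and miR-142-3p was 0.105, and each was the third nearest of the other. Between the strands of miR-223 it was 1.17, and between those of miR-142 it was 0.503. The nearest to miR-223-3p were miR-15a-5p at 0.0494 and miR-16-5p at 0.0832, and the nearest to miR-142-3p were miR-16-5p at 0.0924 and miR-18a-5p at 0.103. The 3 nearest to miR-142-5p were miR-4518, miR-126-5p and miR-3613-5p, at 0.0233, 0.0486 and 0.0714. Those of miR-223-5p were miR-148b-3p, let-7d-3p and miR-320b, at 0.0336, 0.0594 and 0.0610. With 3 libraries and a replicate 1 that stands apart, likeness here says little beyond the size of that shift.

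The unequal movement of the strands can be read as a shift in the ratio, which no scaling between libraries touches. The log2 ratio of 5p to 3p of miR-223 was 1.43 higher in replicate 1 than in the mean of replicates 2 and 3, a 2.69-fold change of the ratio. That of miR-142 was 0.61 higher, a 1.53-fold change. Between replicates 2 and 3 the ratio of miR-223 moved by 0.013 and that of miR-142 by 0.056. Among 34 hairpins with at least 1000 counts of both strands in every library, the shift of miR-223 was the largest toward 5p and the fifth largest in either direction, and that of miR-142 ranked 8 toward 5p. Of the 34, 16 moved toward 5p and 18 toward 3p in replicate 1, with a median absolute shift of 0.60. miR-223 was also 1 of the 22 of 195 hairpins, or 11.3%, in which the higher strand was not the same in every library.

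**Figure D5:**
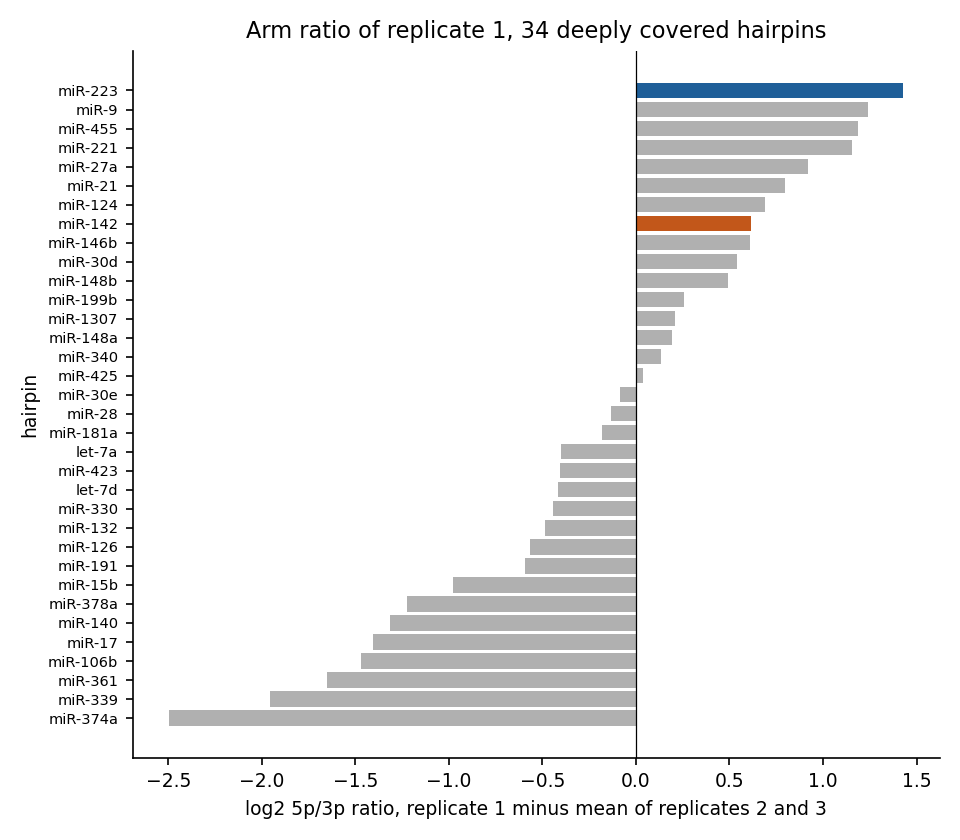
Log2 ratio of 5p to 3p counts in replicate 1 minus the mean of replicates 2 and 3 (x axis) for the 34 hairpins with at least 1000 counts of both strands in every library (y axis). miR-223 (blue) is the highest bar at 1.43, miR-142 (orange) is at 0.61, and bars extend in both directions.

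The 4 strands were above every listed miRNA of red cells and of other tissues, and among those of white cells. The list for white and myeloid cells held 5 other miRNAs, which were not tested for being particular to those cells. Of these 5, miR-21-5p, miR-146b-5p and miR-155-5p were above all 4 strands, and miR-146a-5p and miR-424-5p were below all 4. Of the 3 lymphoid miRNAs, miR-181a-5p was by its mean below both strands of miR-142 and above both of miR-223. It had 196740, 260338 and 245665 FPKM in replicates 1, 2 and 3. It was above miR-223-3p only in replicate 1, where it was also above miR-142-5p. The other lymphoid miRNAs, miR-342-3p at 17862 ± 5231 and miR-150-5p at 53.2 ± 30.0 FPKM (SD, n = 3), were below all 4 strands. All 3 red cell miRNAs were below the 4 strands, led by miR-486-5p at 1006 ± 156 FPKM. Of the 4 of megakaryocytes and progenitors 3 had a row, and miR-126-3p at 134443 ± 28901 FPKM was by its mean above miR-223-5p alone. In replicate 1 it was above miR-223-3p as well, at 102912 against 91627 FPKM. Of 8 miRNAs of liver, muscle, nerve, epithelium and stroma 6 had a row and none was above any of the 4 strands. The highest of them was miR-124-3p, of nerve cells, with 55618 ± 32463 FPKM (SD, n = 3).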

How the data were processed

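RNA was isolated on miRNeasy spin columns, and NEB small RNA libraries were sequenced on an Illumina HiSeq instrument. The authors counted aligned reads over miRBase release 21. The submitters' processing notes name Novoalign 2.08.03 and the builds hg19 and mm10, without the role of each. Both tables hold deposited read counts, not normalized, and FPKM that the authors computed from them. The length behind the FPKM was 1 base under the RefSeq length for 724 of 734 rows with a sequence, which raised the 4 strands by 4.55% to 5.00%. Every row reached 10 counts in some library. Libraries have no molecular identifiers and ligation depends on sequence, so levels of different strands are not molar ratios.

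Rows of one name were summed. Members and lists were chosen with earlier results of these data known. Named miRNAs were the members, their neighbours in level and the 3 nearest profiles, miRNAs with the same seed or within 10 kb, and the lists. edgeR 4.0.16 (R 4.3.3) tested strand counts with Benjamini-Hochberg adjustment. A trial on simulated hairpins used a common spread and no ratio near those of miR-223 and miR-142, so it does not bear on their calls. Alternatives were limma 3.58.1 on log2((5p + 1)/(3p + 1)) of FPKM, DESeq2 1.42.0, other filters and scalings, and leaving out each replicate. Other values used Python 3.11.15, pandas 2.3.3 and scipy 1.17.1.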

Additional observations from a re-analysis of the deposited data

How the results depend on the processing

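The strand ratios of miR-223 and miR-142 changed their calls. With the library not used as a replicate block, miR-223 was called toward 3p at -1.07 (edgeR adjusted p = 0.0485, against a range of 0.0389 to 0.286 over the alternatives other than leaving out replicate 1). Leaving out 1 replicate gave -0.64 to -1.36 for miR-223 and -0.85 to -1.17 for miR-142, and both were called only without replicate 1. The adjusted p of miR-142 was 0.00287 to 0.0971 over the alternatives that kept replicate 1. The count of hairpins called was 162 without the block and 141 to 169 with 1 replicate left out.

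The shift of replicates 2 and 3 from replicate 1 depended on the scaling between libraries, which moved the median of all deeply counted miRNAs from 0.43 to -0.15 with TMM factors, -0.09 with the median of ratios and 0.11 with totals that left out miR-21-5p. Under the same 3 scalings the shift was 1.13, 1.19 and 1.40 for miR-223-3p, 1.14, 1.20 and 1.40 for miR-142-3p, and 0.53, 0.59 and 0.79 for miR-142-5p. That of miR-223-5p reversed, to -0.30, -0.24 and -0.032. The number of miRNAs with a shift above 1, recounted after the values had been seen, fell from 44 to 19, 20 and 26. With the median of ratios the coefficient of variation of miR-142-5p was 22.0%, against a median of 21.7%. Shifts relative to the median are the same under each by construction. miR-223-5p ranked 62 of 851 rows with rows of one name kept separate, where a miRNA of several rows can take several places. Among the 783 names it ranked 48 to 54 with 1 replicate left out. Leaving out a single replicate cannot move a mean of 3 by its SD, so that comparison says nothing about the stability of levels, shares or counts outside the strands. Level differences were compared by the sign of their mean. Leaving out a replicate cannot change it where 3 of 3 libraries go one way. In counts, miR-142-5p over miR-223-3p was 0.30 (exact sign-flip p = 0.5), against 0.37 (p = 0.25) in FPKM, since miR-223-3p had the higher count in replicate 3. The difference between the strands of miR-223, of mixed sign, was 0.64 to 1.36 with 1 replicate left out. Counting error was small at this depth for all 4 strands, and 3 libraries in 1 group limit what can be told apart.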

Other observations

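The closest miRNA gene to MIR142 in RefSeq was MIR4736, the only one within 10 kb of either locus. miR-4736 had 7, 11 and 10 counts in replicates 1, 2 and 3, a mean of 44.6 ± 12.7 FPKM (SD, n = 3), against 58425 to 180242 counts of miR-142-3p.

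Both 3p strands of miR-223 and miR-142 end with A, both 5p strands end with U, and the 3p strands rose more from replicate 1 to the other libraries. The same shift was therefore set out by the last base of all mature miRNAs with at least 1000 counts in every library, of which 140 of 163 had a RefSeq sequence. The grouping was made after the shifts of the 4 strands had been seen. The median log2 shift of replicates 2 and 3 from replicate 1, in CPM, was 1.04 for the 27 that end with A and 0.90 for the 33 that end with G. It was 0.38 for the 33 that end with C and 0.29 for the 47 that end with U. A shift above 1 was seen for 55.6%, 39.4%, 15.2% and 10.6% of them. With the 4 strands left out the medians were 1.03 for A and 0.29 for U, and the shares above 1 were 52.0% and 8.89%. Of the 5p strands, miR-223-5p shifted by 0.28, but miR-142-5p shifted by 1.10, above the upper quartile of 0.77 of those that end with U. By first base the medians ran from 0.38 for U to 0.71 for C. The miRNAs share libraries and many belong to families, so these are descriptions without a test, and the part of the last base in the shift was not tested.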
